A study of Mus musculus with 64 samples.

Results

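The Trim5, Trim12 and Trim30 genes of mouse chromosome 7, together with Trim68 and Stim1 on the same chromosome, were followed across 64 colon RNA libraries. The 9 genes, Trim5, Trim12a, Trim12c, Trim30a, Trim30b, Trim30d, Trim34a, Trim68 and Stim1, were taken by name from the 35534 genes of each of 2 deposited tables, one for specific pathogen-free (SPF) and one for germ-free (GF) mice, and each was found in both. They were chosen by place and name with earlier results in view, and selected on their measured SPF levels, in which Trim12c, Trim68, Stim1 and Trim5 had differed between vancomycin and PBS. SPF differences between treatments or hours are therefore a description: their values and the counts past the threshold are given with no p-value, and nothing is read from them.

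All mice were wild-type Swiss Webster, an outbred stock whose animals differ in the alleles they carry, aged 8 to 12 weeks and kept on a 12 h light phase. Each housing type held 8 groups of 4 libraries, vancomycin or phosphate-buffered saline (PBS) at ZT5, ZT11, ZT17 and ZT23, where ZT counts hours from lights-on. Vancomycin was given into the peritoneum as 2.5 mg in 100 µl PBS, 2 times a day for 3 days and once on day 4, and PBS mice had the same volume without it. GF mice left their isolators for sealed cages during treatment, so GF vancomycin and GF PBS mice share that move. The labels give no litter, cage, sex or genotype at any locus, and do not say that each library is a separate animal, so a p-value here reflects the spread among libraries, which may be technical. Libraries were made from poly(A) RNA of whole colon and read as 75-cycle single-end reads.

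TRIM proteins typically carry a RING domain that acts as a ubiquitin ligase, a B-box and a coiled coil. In primates TRIM5 is a restriction factor that binds incoming retroviral capsids, and the rodent Trim5, Trim12 and Trim30 genes are its expanded counterparts. Trim30a is induced by interferon and limits inflammatory signalling in mouse macrophages. Human TRIM34, the counterpart of Trim34a, is induced by interferon, and human TRIM68 is an E3 ligase studied in androgen receptor and interferon signalling. Stim1 is the calcium sensor of the endoplasmic reticulum that opens Orai channels at the plasma membrane when stores run low; it is not a TRIM gene and is a member here only by its place on the chromosome and its earlier values. Interferon-induced genes often carry an interferon-stimulated response element near their start.

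In the mouse GRCm38 annotation the 9 genes lie on chromosome 7, all protein-coding. Stim1 comes first. Trim68 begins 0.41 Mb after the start of Stim1, and the other 7 genes lie within a stretch that begins 1.98 Mb (Trim34a) to 2.2 Mb (Trim30d) after it. The windows below run from 150 bases before to 25 after the annotated start in RefSeq's GRCm38.p6 table, which held all 9 members, while the deposited counts were made on GRCm39. They are those of 5 of the 6 members whose windows held the motif given next. The windows of Trim12a, which also held it, and of the members without it are not shown. Capitals mark a match to GAAA, any 2 bases and GAAA again, the core of an interferon-stimulated response element, searched on both strands.
Trim5, chr7:104288082-104288256, minus strand: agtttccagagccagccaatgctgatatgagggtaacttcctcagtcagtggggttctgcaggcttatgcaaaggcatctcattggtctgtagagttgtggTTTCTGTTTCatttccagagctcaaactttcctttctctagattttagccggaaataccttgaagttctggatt
Trim12c, chr7:104353325-104353499, minus strand: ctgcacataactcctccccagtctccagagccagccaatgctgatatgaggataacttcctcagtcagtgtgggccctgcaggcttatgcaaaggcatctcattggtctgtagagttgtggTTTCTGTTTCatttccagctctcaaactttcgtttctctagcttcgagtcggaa
Trim30a, chr7:104465169-104465343, minus strand: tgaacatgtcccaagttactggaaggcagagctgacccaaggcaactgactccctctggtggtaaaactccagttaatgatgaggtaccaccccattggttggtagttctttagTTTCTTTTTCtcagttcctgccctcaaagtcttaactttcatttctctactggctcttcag
Trim30d, chr7:104507825-104507999, minus strand: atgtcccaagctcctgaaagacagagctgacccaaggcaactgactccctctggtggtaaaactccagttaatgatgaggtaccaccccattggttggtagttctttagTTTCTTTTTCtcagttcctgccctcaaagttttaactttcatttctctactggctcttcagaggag
Trim34a, chr7:104244307-104244481, plus strand: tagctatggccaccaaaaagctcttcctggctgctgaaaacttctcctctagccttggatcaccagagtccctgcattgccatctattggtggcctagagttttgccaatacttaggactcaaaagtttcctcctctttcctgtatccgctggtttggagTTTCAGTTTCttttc
Over the full 300-base windows of the table the motif was found in 1131 of 32851 windows, 3.44%. It was found in the windows of 6 of the 9 members, those shown and Trim12a, and the letters were not in the windows of Trim30b, Trim68 and Stim1. Over these windows Trim5 and Trim12c share an identical run of 63 bases, Trim5 and Trim12a one of 116, Trim30a and Trim30d one of 118, and Trim12a and Trim12c one of 60, against 6 to 11 bases for the other pairs, those of Trim30b with Trim30a and Trim30d included. A second annotated start of Trim30a also held the motif.

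Estimated read totals ran from 10044032 to 13615804 per SPF library and from 10513966 to 15736087 per GF library. Levels are given as CPM, estimated counts scaled to a common library total and corrected for library composition. All 9 members passed the filter on low counts in both tables, Trim30b with as few as 1.22 estimated reads in a GF library, so its low values rest on few reads. Colon markers were present throughout: 8 epithelial markers averaged 9.14 to 10.8 log2 CPM per library and 7 smooth muscle markers 8.81 to 12.0. Of other cells, the 12 T and NK cell markers ranged from 0.106 to 4.60 log2 CPM in vancomycin and from −0.406 to 3.91 in PBS libraries of SPF mice. The 10 of them tested in GF mice ran from −0.811 to 3.95 after vancomycin and from −1.03 to 5.07 after PBS. The mean of 4 Y-linked genes lay between 5.66 and 6.08 log2 CPM in every SPF library, but between −0.331 and 6.04 in GF vancomycin (median 1.2) and between 0.455 and 6.18 in GF PBS libraries (median 5.77). The mean of 4 distal Hox genes ran from −1.34 to 5.75 log2 CPM in GF libraries and from 3.82 to 5.78 in SPF libraries. With the Y-linked score or a Hox score as a covariate, 0 members passed in the GF vancomycin tests, as without it. Since 0% of all genes passed those tests without a covariate, the unchanged count cannot show whether these scores matter. In bulk tissue, fewer cells of a type and less RNA per cell cannot be told apart.

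Trim12c, a rodent paralogue of TRIM5, changed level in steps between groups of SPF mice. At ZT5 it was at 47.6, 46.8, 47.1 and 15.6 CPM after vancomycin and at 11.5, 13.5, 16.1 and 43.3 CPM after PBS. At ZT11 the vancomycin libraries had 55.9, 20.7, 45.1 and 57.4 CPM, against 11.6, 12.3, 13 and 12.5 CPM in the PBS libraries. At ZT17 the order was the other way round, with 12.5, 15.3, 10 and 13.5 CPM after vancomycin and 41.7, 49.1, 43.8 and 44.2 CPM after PBS. The groups overlapped at ZT5, where 1 library of each treatment had the level of the other, and did not overlap at ZT11 or ZT17. At ZT23 both groups were high, at 97.8, 48.2, 43.5 and 72.8 CPM after vancomycin and 67.5, 72.3, 62.3 and 75.5 CPM after PBS. No SPF library lay between 20.7 and 41.7 CPM, a gap of 1.01 log2 units with 13 libraries below and 19 above.

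Trim5, which carries the name of the primate restriction factor, had a different step. At ZT23 it was at 2.82, 11.9, 11.1 and 1.48 CPM in vancomycin-treated SPF mice and at 1.09, 1.36, 1.10 and 1.16 CPM in PBS-treated ones, so the PBS libraries were all low and the vancomycin libraries were split. In the other 3 hours no SPF library was below 8.99 CPM. At ZT17 Trim5 was at 17.7, 22.2, 16.5 and 16.6 CPM after vancomycin and at 8.99, 12.8, 10.9 and 10.1 CPM after PBS, without overlap. The gap between 2.82 and 8.99 CPM, 1.63 log2 units, set 6 SPF libraries apart from 26.

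In GF mice the same steps appeared, but spread over groups. Trim5 at ZT23 was at 2.37, 1.59, 10.6 and 1.40 CPM after vancomycin and at 1.24, 13, 27.1 and 28.3 CPM after PBS. One vancomycin library each at ZT11 (1.92 CPM) and ZT17 (2.18 CPM) was also low, and the other 26 GF libraries were at 8.91 CPM or above. Trim12c at ZT11 was at 16, 57.9, 20.5 and 74.1 CPM after vancomycin and at 14.5, 14.6, 16.6 and 14.6 CPM after PBS, so the PBS libraries were all low and the vancomycin libraries were split. At ZT17 it was at 106, 18.8, 17.8 and 42.9 CPM after vancomycin and at 50.8, 17.3, 53.1 and 16.7 CPM after PBS, so high and low libraries stood side by side in both groups. No GF library had Trim12c between 22.2 and 34.5 CPM, a gap of 0.63 log2 units with 14 libraries below and 18 above.

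**Figure D1:**
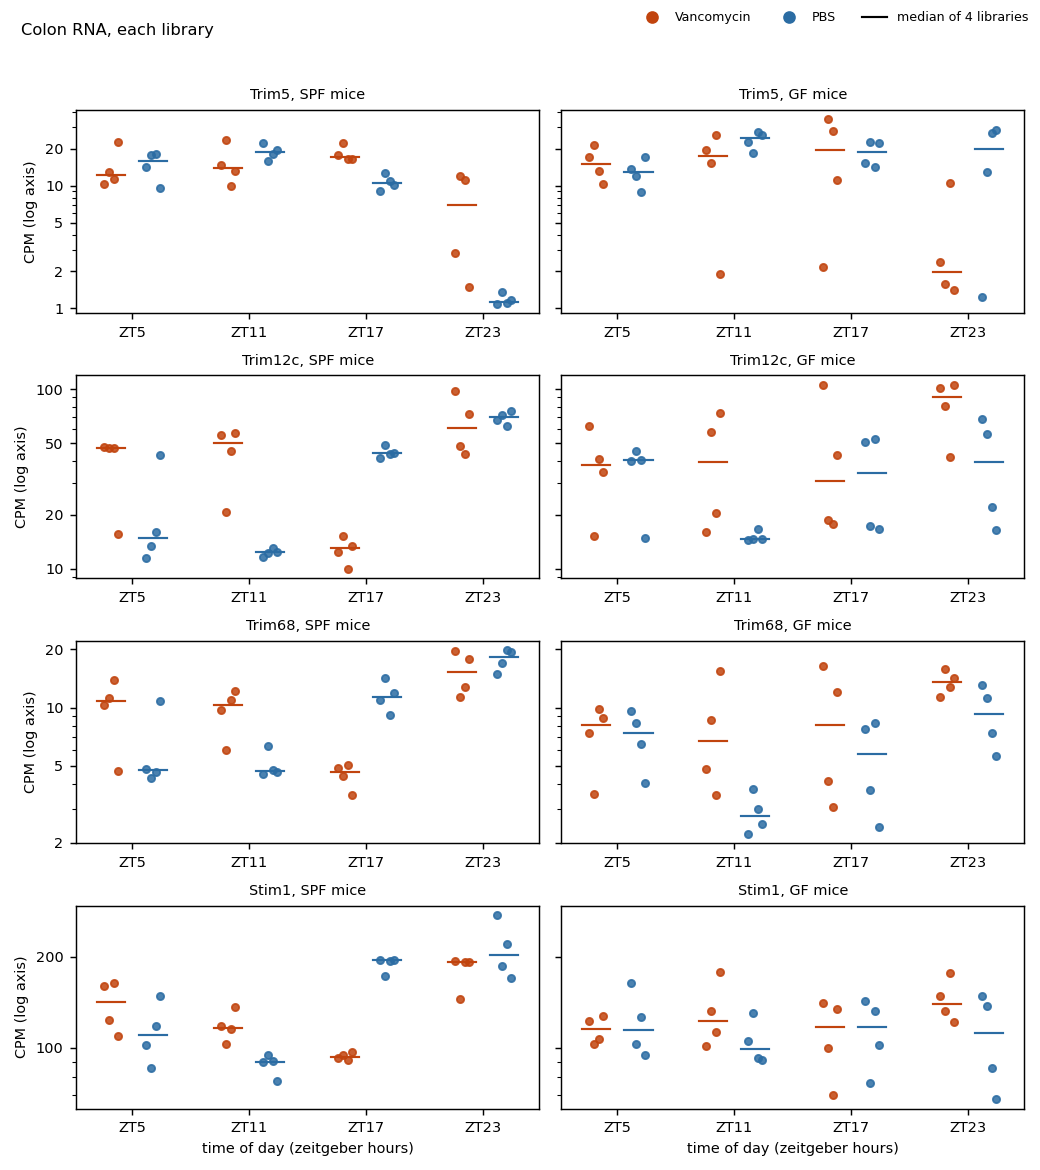
CPM on a log axis for Trim5, Trim12c, Trim68 and Stim1 in each library, SPF mice on the left and GF mice on the right, by hour of the day, vancomycin left of PBS, with a bar at the median of 4 libraries. SPF groups such as PBS at ZT11 or vancomycin at ZT17 hold Trim12c at 1 level, while most GF groups hold libraries at both levels.

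Read together, Trim12c and Trim5 placed each library in 1 of 3 combinations, and the fourth did not occur: in 0 of 32 SPF and 0 of 32 GF libraries were both genes below their gaps. In SPF mice 13 libraries had low Trim12c with Trim5 at 14.2 to 23.8 CPM, 13 had Trim12c at 41.7 to 57.4 CPM with Trim5 at 8.99 to 14.7 CPM, and 6 had Trim12c at 62.3 to 97.8 CPM with Trim5 at 1.09 to 2.82 CPM. The GF libraries fell into 14, 12 and 6 of the same kinds, with Trim12c at 14.5 to 22.2, 34.5 to 62.2 and 68.1 to 106 CPM and Trim5 at 17.1 to 34.7, 8.91 to 17.2 and 1.24 to 2.37 CPM. These combinations were read from the 2 genes' own levels, so the ranges describe the libraries and are not a comparison of groups.

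The combinations were unevenly spread over the study's groups. Of the 8 SPF groups, 4 held a single one: PBS at ZT11 and vancomycin at ZT17 had 4 libraries each with low Trim12c, PBS at ZT17 had 4 of the middle kind, and PBS at ZT23 had 4 with low Trim5. Vancomycin at ZT23 had 2 of the middle kind and 2 with low Trim5. Vancomycin at ZT5 had 1 low-Trim12c library and 3 of the middle kind, PBS at ZT5 had 3 and 1, and vancomycin at ZT11 had 1 and 3. Only 1 of the 8 GF groups, PBS at ZT11, was of 1 kind. In groups of 1 kind, the combination, the hour and the treatment cannot be told apart.

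Trim68 followed Trim12c although it lies well outside the TRIM5-like cluster. At ZT17 it was at 4.89, 4.42, 5.03 and 3.54 CPM in vancomycin-treated SPF mice and at 10.9, 14.3, 9.11 and 11.9 CPM in PBS-treated ones, without overlap. At ZT5 it was at 10.3, 11.2, 13.9 and 4.69 CPM after vancomycin and at 4.82, 4.31, 4.64 and 10.8 CPM after PBS, with the same library of each group apart as for Trim12c. At ZT11 it was at 9.7, 6.03, 11 and 12.2 CPM after vancomycin and at 4.52, 6.32, 4.74 and 4.66 CPM after PBS, which overlapped by 1 library. At ZT23 all SPF libraries were at 11.3 CPM or above. In the 13 SPF libraries with Trim12c at or below 20.7 CPM, Trim68 ran from 3.54 to 6.32 CPM, and in the 19 above from 9.11 to 19.9 CPM, so the ranges did not touch. In GF mice the matching ranges were 2.21 to 7.34 CPM in 14 libraries and 6.49 to 16.4 CPM in 18, which met at their edges. At ZT17 the GF libraries had 16.4, 4.18, 3.06 and 12 CPM after vancomycin and 7.75, 3.74, 8.27 and 2.42 CPM after PBS, so each group held high and low libraries. These ranges were split by Trim12c's own level and are a description.

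Stim1, the calcium sensor, followed the same order over a narrower span. At ZT17 it was at 92.7, 94.4, 91.0 and 96.9 CPM in vancomycin-treated SPF mice and at 195, 173, 194 and 195 CPM in PBS-treated ones, with little spread inside either group. At ZT11 it was at 118, 103, 115 and 136 CPM after vancomycin and 89.4, 94.5, 90.1 and 77.9 CPM after PBS, also without overlap but in the other direction. At ZT23 it was at 194, 145, 192 and 192 CPM after vancomycin and at 275, 187, 220 and 170 CPM after PBS. In GF mice at ZT17 it was at 141, 99.6, 69.7 and 134 CPM after vancomycin and at 143, 76.4, 132 and 102 CPM after PBS, with full overlap. Over all SPF libraries Stim1 ran from 77.9 to 118 CPM where Trim12c was low and from 115 to 275 CPM where it was not, and in GF mice from 67.5 to 130 and from 103 to 178 CPM.

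**Figure D2:**
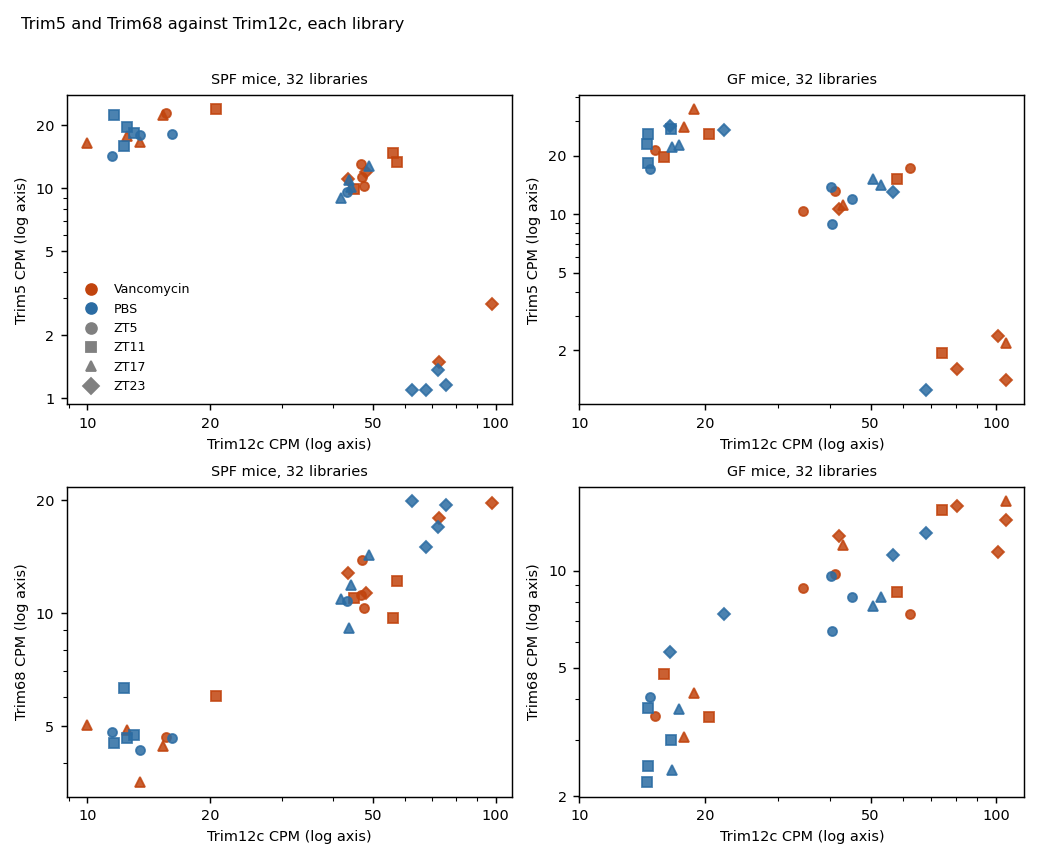
Trim5 (top) and Trim68 (bottom) against Trim12c in each library, all as CPM on log axes, SPF mice on the left and GF mice on the right, colours for treatment and symbols for hour. In both tables the points fall into 3 clusters for Trim5 and run upward for Trim68, with no point low in both Trim5 and Trim12c.

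Separated levels were counted over all genes as well. A gap over 1 log2 unit with at least 2 libraries on each side was found in 3 of 9 members in SPF mice, beside 4.49% of the 16938 genes tested, and in 3 of 9 in GF mice, beside 4.75% of 16951. In both tables it was found in 2 of 9, Trim5 and Trim30b, beside 2.31% of 16604 genes. The gaps of Trim30b were unlike. In SPF mice it lay between 3.93 and 9.44 CPM with 2 libraries above. In GF mice it lay between 0.179 and 0.436 CPM with 3 libraries below. With a gap over 0.5 log2 units and at least 6 libraries on each side, a rule added after the values were seen, 4 of 9 members passed in SPF mice, beside 5.07% of genes, and 3 of 9 in GF mice, beside 6.85%. In SPF and GF mice alike 3 of 9 passed, Trim5, Trim12c and Trim30b, beside 2.76% of genes. The members were chosen with these values known, so the counts are a description. Of 42 neighbours on chromosome 7 tested in both tables, 3 passed that second rule.

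The SPF vancomycin differences changed sign with the hour for Trim12c, Trim68 and Stim1. On the log2 scale, vancomycin over PBS, Trim12c was 1.86 ± 0.36 (SE) at ZT11 and −1.80 ± 0.36 at ZT17. Trim68 was 0.94 ± 0.29 at ZT11 and −1.37 ± 0.29 at ZT17, and Stim1 was 0.43 ± 0.15 and −1.01 ± 0.15. Trim5 was 2.53 ± 0.45 at ZT23, where 2 of the 4 vancomycin libraries and none of the PBS libraries were above the gap. Of the 9 members, 3 had an adjusted p under 0.05 at ZT17 in edgeR's fit of all genes, beside 0.319% of all genes, and 3 in the test of treatment by hour, beside 0.36%. At ZT5, ZT11 and ZT23 0 members did, beside 0.0827% of genes at ZT5, 0% at ZT11 and 0% at ZT23. At an unadjusted p under 0.05 there were 3, 4 and 3 members, beside 2399, 1670 and 1243 of 16938 genes. By DESeq2 there were 0, 1 and 1 members, beside 244, 94 and 42 genes. Single libraries decided the edgeR counts of adjusted p under 0.05. At ZT17, 1 member passed without PBS ZT17 replicate 2 or without vancomycin ZT17 replicate 1, 2 or 3. At ZT11, 1 passed without PBS ZT5 replicate 4, vancomycin ZT5 replicate 4, or vancomycin ZT11 replicate 2 or 3. At ZT23, 1 passed without vancomycin ZT23 replicate 1 or 4 or vancomycin ZT11 replicate 3, and at ZT5, 1 passed without PBS ZT5 replicate 4. These contrasts chose the members, so nothing is read from their counts.

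Averaged over the 4 hours, 8 of the 9 SPF differences were above 0 and the size differed by gene. They were 0.73 ± 0.20 for Trim5, 0.74 ± 0.25 for Trim30a, 1.30 ± 0.42 for Trim30b and 0.40 ± 0.16 for Trim34a. The other 5 were 0.36 ± 0.19 for Trim12a, 0.36 ± 0.27 for Trim30d, 0.22 ± 0.17 for Trim12c, 0.02 ± 0.14 for Trim68 and −0.13 ± 0.08 for Stim1. The median of the members was 0.36, beside 0.00 over all genes tested. By edgeR 0 members had an adjusted p under 0.05, beside 0.809% of genes. At an unadjusted p under 0.05 there were 4 members, beside 2737 of 16938 genes. DESeq2 passed 1 member, beside 481 genes. The edgeR count was 3 without vancomycin ZT11 replicate 3, and 1 without PBS ZT23 replicate 4 or vancomycin ZT23 replicate 4. Trim68 took either sign when single libraries were left out, within −0.03 to 0.12.

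In groups of 4 against 4, SPF libraries of the 2 treatments did not overlap for 2 members at ZT11 (Trim12c and Stim1, vancomycin higher), for 4 at ZT17 (Trim5 higher, Trim12c, Trim68 and Stim1 lower after vancomycin) and for 2 at ZT23 (Trim5 and Trim30a, vancomycin higher). Over all genes the share without overlap was 3.03%, 5.89% and 5.12% at those hours. At ZT5 it was 0 members and 8.74% of genes.

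**Figure D3:**
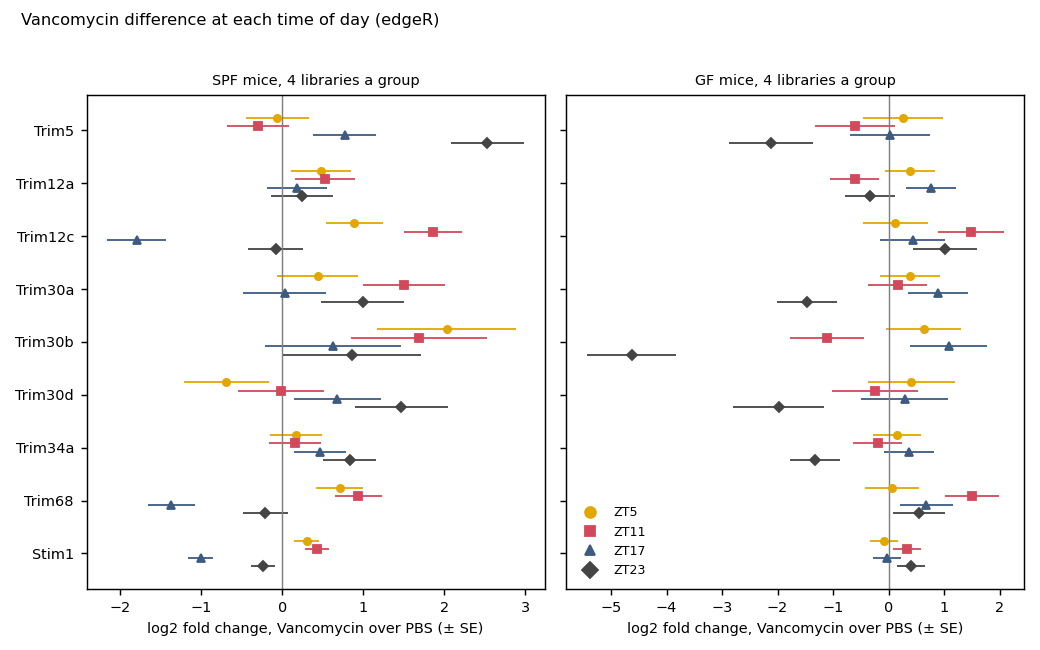
Log2 fold change of vancomycin over PBS with its SE for each member at ZT5, ZT11, ZT17 and ZT23, SPF mice on the left and GF mice on the right, 4 libraries a group. In SPF mice Trim12c spans −1.80 to 1.86 between hours, and in GF mice Trim30b at ZT23 is farthest from 0, at −4.63.

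GF mice give a test that played no part in the choice. No member passed edgeR's quasi-likelihood test of vancomycin against PBS over all hours in GF mice. Of the 9, 0 had an adjusted p under 0.05, beside 0% of 16951 genes. At an unadjusted p under 0.05 there were 3 members, beside 672 genes, and DESeq2 passed 0 members, beside 5 genes. Trim12c was 0.76 ± 0.29 log2 units (mean 52.3 ± 32.8 CPM after vancomycin and 31.4 ± 18.7 after PBS, SD, n = 16 each; edgeR adjusted p = 1). Trim68 was 0.69 ± 0.24, Stim1 0.15 ± 0.12, Trim5 −0.61 ± 0.36 and Trim30b −1.01 ± 0.35, all with an edgeR adjusted p of 1. Trim12a was 0.05 ± 0.22, Trim30a −0.01 ± 0.27, Trim30d −0.38 ± 0.39 and Trim34a −0.26 ± 0.22. The sign of the first pair turned when single libraries were left out. The median of the 9 was −0.01, beside 0.01 over all genes.

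The GF differences at single hours were no clearer. At ZT5, ZT11, ZT17 and ZT23, 0 members passed edgeR's test, beside 0% of genes at each hour. At an unadjusted p under 0.05 there were 0, 2, 0 and 5 members, beside 606, 832, 757 and 2050 of 16951 genes. By DESeq2 there were 0, 0, 0 and 1 members, beside 9, 8, 13 and 55 genes. At ZT23 Trim30b was at 0.179, 0.169, 0.473 and 0.0946 CPM after vancomycin and at 2.18, 6.74, 11.1 and 1.92 CPM after PBS, a log2 difference of −4.63 ± 0.80 (edgeR adjusted p = 0.0676). The T and NK cell markers of the same libraries averaged −0.38, 1.56, 0.73 and 0.09 log2 CPM after vancomycin and 1.87, 3.08, 5.07 and 2.32 log2 CPM after PBS, and their part in the difference was not tested. It was the only member whose GF groups did not overlap at ZT23, beside 6.61% of genes, and at ZT5, ZT11 and ZT17 no member's groups were apart, beside 1.13%, 3.24% and 2.02%. Trim30b passed in 6 of the 32 fits that each leave out 1 GF library, those without PBS ZT23 replicate 1 or 4, PBS ZT17 replicate 3, vancomycin ZT17 replicate 4, PBS ZT5 replicate 1 or vancomycin ZT5 replicate 4. Trim5 at ZT23 was −2.12 ± 0.76 (edgeR adjusted p = 0.312) and Trim34a −1.33 ± 0.45 (edgeR adjusted p = 0.309), and neither passed. At ZT11 Trim12c was 1.48 ± 0.59 and Trim68 1.5 ± 0.49 (edgeR adjusted p = 0.993 and 0.974).

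The difference between housing types was tested in 1 fit of all 64 libraries. The SPF effect, known when the members were chosen, is part of this contrast. Its p-values are therefore not independent of that choice, and the values are a description. By edgeR 0 of 9 members passed, beside 0% of 16604 genes. At an unadjusted p under 0.05 there were 4 members, beside 1651 genes, and DESeq2 passed 1 member, beside 16 genes. The SPF effect minus the GF effect was 2.31 ± 0.56 log2 units for Trim30b (edgeR adjusted p = 0.229), 1.34 ± 0.43 for Trim5 (adjusted p = 0.34) and −0.68 ± 0.28 for Trim68 (adjusted p = 0.437). For Trim12c it was −0.55 ± 0.34 and for Stim1 −0.29 ± 0.14 (adjusted p = 0.613 and 0.505).

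Across the hours, 6 members had an adjusted p under 0.05 in SPF mice after PBS (Trim5, Trim12c, Trim30d, Trim34a, Trim68 and Stim1), beside 8.9% of genes, and 3 after vancomycin (Trim12c, Trim68 and Stim1), beside 8.2%. These use libraries of the contrasts that chose the members and are given as counts. In GF mice 0 members passed across the hours after vancomycin and 0 after PBS, beside 0.142% of genes in each case. At an unadjusted p under 0.05 there were 5 members in each, beside 1612 genes after vancomycin and 2491 after PBS. By DESeq2 there were 2 in each, beside 179 and 396 genes. The GF test of treatment by hour passed 0 members, beside 0% of genes. Of the members 2 had an unadjusted p under 0.05, beside 1405 genes, and 1 passed by DESeq2, beside 9 genes. The lowest GF adjusted p-values across hours after PBS were 0.167 for Trim30b and 0.199 for Trim30a in edgeR.

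Trim30d, a paralogue of Trim30a, and Trim34a had their lowest levels in libraries with low Trim5. Trim30d was at 4.50, 21.5, 14.3 and 2.39 CPM in vancomycin-treated and at 3.85, 2.92, 6.08 and 2.53 CPM in PBS-treated SPF mice at ZT23, and at 26.5, 29.1, 24.1 and 11.9 CPM against 11.3, 14.8, 16 and 15.1 CPM at ZT17. Over libraries it ran from 11.9 to 45.0 CPM in the SPF libraries with low Trim12c and from 2.39 to 6.08 CPM in those with low Trim5. In GF mice those ranges were 16.7 to 89.2 and 1.10 to 8.21 CPM. In libraries of the middle kind it was at 6.6 to 21.5 CPM in SPF and 5.05 to 71.3 CPM in GF mice, overlapping the low-Trim12c ranges in both. At ZT11 in GF mice Trim30d was at 33.8, 71.3, 89.2 and 6.12 CPM after vancomycin and at 49.2, 52.2, 79.6 and 57.7 CPM after PBS, and the library at 6.12 CPM was the one with low Trim5. Trim34a had the same order, with 8.67 to 27.1 and 3.36 to 7.11 CPM in SPF and 13.6 to 35.7 and 4.67 to 9.92 CPM in GF libraries, and 6.92 to 12.8 and 9.22 to 34.4 CPM in those of the middle kind, again with overlap.

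Trim30a, the best studied of the mouse paralogues, behaved otherwise. It spanned 7.40 to 107 CPM after vancomycin and 8.08 to 28.2 CPM after PBS in SPF mice, and its ranges overlapped whatever the level of Trim12c. The highest SPF value, 107 CPM, was vancomycin at ZT11 replicate 2, whose 3 companions were at 22.8, 7.40 and 27.8 CPM. That library also had the highest mean of the interferon-induced genes, 5.93 log2 CPM, and of the T and NK cell markers, 4.60 log2 CPM, among SPF libraries. At ZT23 it was at 29.2, 30.5, 20 and 18.4 CPM after vancomycin and at 10.7, 15.7, 8.84 and 14.4 CPM after PBS, without overlap. In GF mice at the same hour it was at 17.3, 6.95, 12.3 and 17.4 CPM after vancomycin and at 12.9, 67.6, 58.8 and 11.5 CPM after PBS. Trim30b, a further paralogue of Trim30a, reached 14.7 CPM in the SPF vancomycin library with the highest Trim30a and was at 0.243 to 9.44 CPM in the other SPF libraries. At ZT5 it was at 1.26, 3.93, 2.8 and 9.44 CPM after vancomycin and at 1.44, 1.22, 0.994 and 0.559 CPM after PBS, and only the lowest vancomycin library lay among the PBS libraries. Trim12a stayed between 1.06 and 6.48 CPM in SPF and between 0.98 and 11.8 CPM in GF libraries, with no gap over 1 log2 unit in either. Its widest GF gap, 0.952 log2 units between 5.88 and 11.4 CPM, had 2 libraries above.

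**Figure D4:**
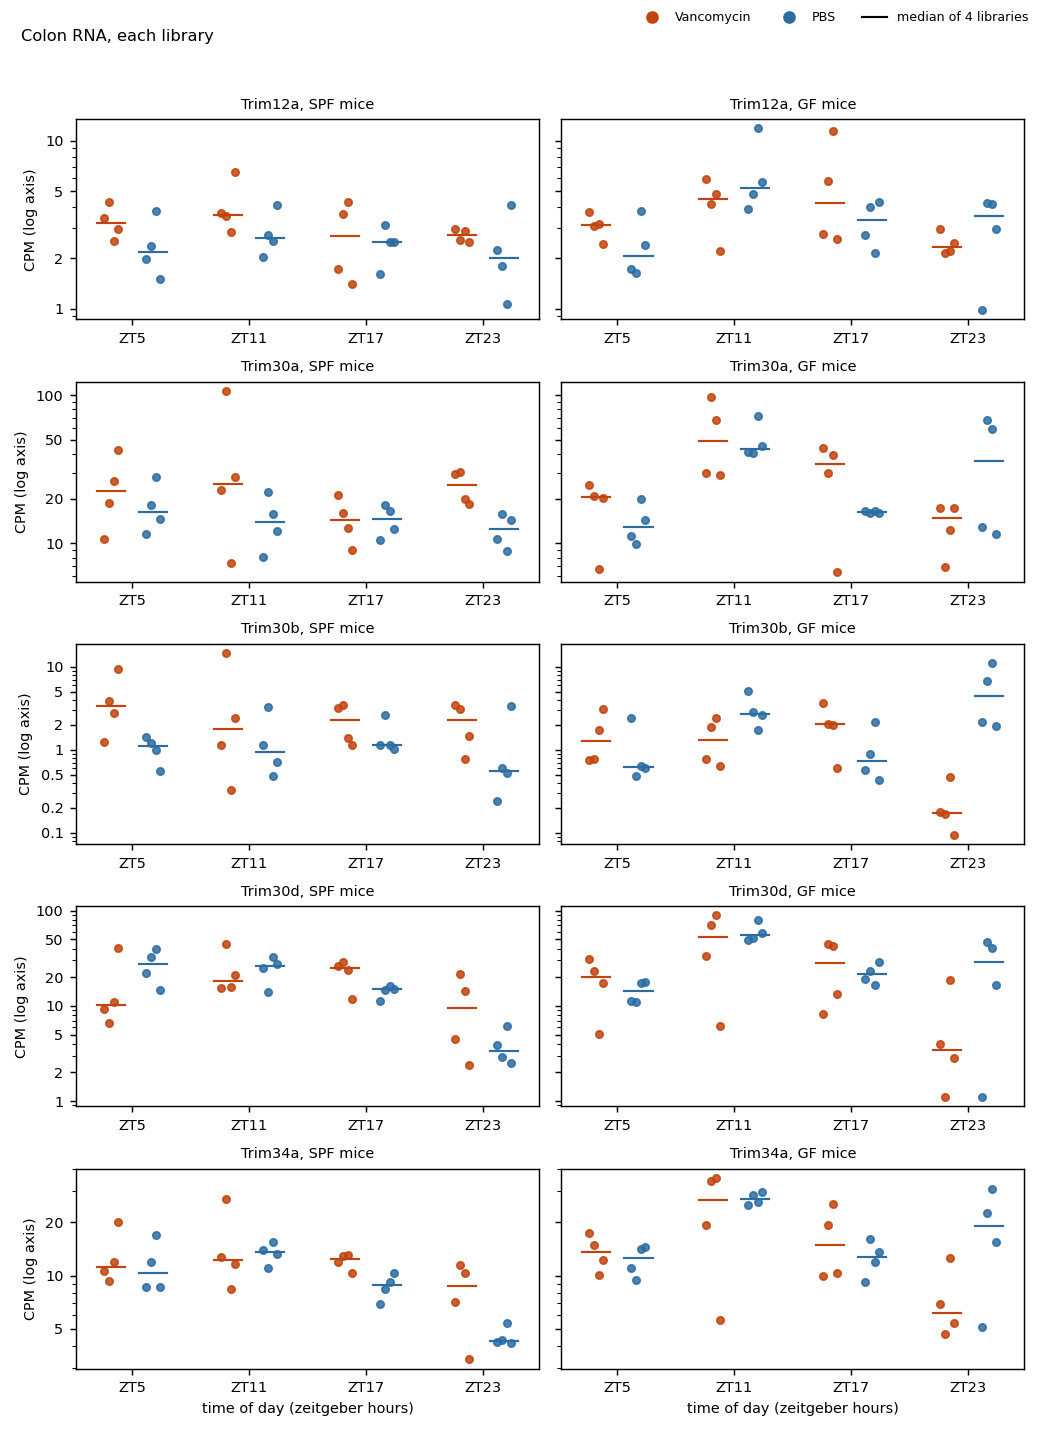
CPM on a log axis for Trim12a, Trim30a, Trim30b, Trim30d and Trim34a in each library, SPF mice on the left and GF mice on the right, by hour, vancomycin left of PBS, with a bar at the median of 4 libraries. Trim30d and Trim34a are low in those SPF libraries at ZT23 in which Trim5 is low. Trim30a and Trim30b have single high libraries, up to 107 and 14.7 CPM.

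Most of the variance of Trim5, Trim12c, Trim68 and Stim1 lay between groups in SPF mice and within groups in GF mice. The share of the sum of squares of log2 CPM between the 8 groups was 84.6% for Trim5, 80.3% for Trim12c, 78.2% for Trim68 and 85% for Stim1 in SPF mice, where the median gene had 33.1% and the 95th percentile was 62.8%. In GF mice the shares were 37.8% for Trim5, 37.9% for Trim12c, 48.6% for Trim68 and 18.8% for Stim1. The median gene there had 26.8% and the 95th percentile was 48.2%, so of these genes only Trim68 was past it. Trim30a and Trim30b had the opposite order, with 27.3% and 26.3% in SPF and 49.6% and 67.1% in GF mice. Within GF groups Trim5 had an SD of 1.26 log2 units, beside 0.39 for the median gene. The SPF shares belong to the contrasts that chose the members and are a description.

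Within groups, after each group's mean was subtracted, some members were still correlated, in either direction, and most relations did not pass. Correlations were taken over 32 libraries of a table, or inside a level of at least 6 where a gene had separate levels. Permutations were within groups, with Benjamini-Hochberg adjustment over 88 relations. Of 52 SPF relations, 8 positive and 4 negative ones passed by r and 40 did not. Of 36 GF relations, 7 positive and 8 negative ones passed and 21 did not. Trim30d and Trim34a were the closest pair: r = 0.88 and rho = 0.89 in SPF mice (n = 32, permutation test, adjusted p = 0.000293 and 0.00044, r = 0.84 without the 2 farthest libraries), and r = 0.91 and rho = 0.89 in the 30 GF libraries above Trim30d's gap (adjusted p = 0.000293 and 0.00044, r = 0.90). Trim68 and Stim1 rose and fell together, with r = 0.76 and rho = 0.76 in GF mice (n = 32, permutation test, adjusted p = 0.0011 and 0.00117, r = 0.71 without 2). In SPF mice the same pair had r = 0.56 and rho = 0.47 (permutation test, adjusted p = 0.0397 and 0.071). Without the 2 farthest libraries r was 0.36, and the pair did not then pass the adjusted test. Split at Trim68's own gap in SPF mice, between 6.32 and 9.11 CPM, a step chosen after seeing the data, r was 0.09 in 18 libraries above and 0.23 in 11 below, and neither passed (permutation adjusted p over 115 relations, 0.844 and 0.662).

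Trim68 ran opposite to Trim34a, Trim30d and Trim5. Its relations to Trim30a (r = −0.33 in SPF and −0.21 in GF mice) and Trim30b (0.19 and 0.12) did not pass (permutation adjusted p = 0.299, 0.59, 0.459 and 0.709). With Trim34a it had r = −0.61 and rho = −0.56 in SPF mice and r = −0.61 and rho = −0.65 in GF mice (n = 32 each, permutation test, adjusted p = 0.0208 and 0.0142 for r, and 0.0282 and 0.00808 for rho). Leaving out the 2 farthest libraries gave r = −0.59 in SPF and −0.54 in GF mice, and neither then passed the adjusted test. Split at the same SPF gap of Trim68, r was −0.41 in 18 libraries above and −0.13 in 11 below (permutation adjusted p over 115 relations, 0.583 and 0.808). With Trim30d, Trim68 had r = −0.66 and rho = −0.62 in SPF mice (n = 32, permutation test, adjusted p = 0.0142 and 0.0139). Without the 2 farthest libraries r was −0.58, which did not then pass the adjusted test. In the 30 GF libraries above Trim30d's gap r was −0.58 and rho −0.54 (permutation adjusted p = 0.0355 and 0.0534, r = −0.49 without 2). At the same SPF gap of Trim68 that pair had r = −0.50 in 18 libraries and −0.03 in 11 (permutation adjusted p over 115 relations, 0.486 and 0.942). Among libraries with Trim5 above its gap, Trim5 and Trim68 had r = −0.77 in SPF (n = 26) and −0.81 in GF mice (n = 25), with permutation adjusted p = 0.0238 and 0.00425. Their rho was −0.73 and −0.83 (permutation adjusted p = 0.0139 and 0.00176), and r without the 2 farthest libraries was −0.62 and −0.75. Split by Trim68's gap as well, the SPF value was 0.16 in 12 libraries and −0.41 in 11. The split narrows Trim68's range and leaves few libraries, so it cannot show what the relation rests on. For Trim5 and Stim1 r was −0.67 in SPF and −0.69 in GF mice (permutation adjusted p = 0.0165 and 0.0169), rho was −0.65 and −0.66 (permutation adjusted p = 0.0128 and 0.0142), and r was −0.57 in both without the 2 farthest libraries. Among these SPF libraries Trim5 was at 14.2 to 23.8 and Stim1 at 77.9 to 118 CPM where Trim12c was low. In those of the middle kind they were at 8.99 to 14.7 and 115 to 195 CPM. The part of the step between these kinds in this relation was not tested. Trim5 and Trim34a had r = 0.83 and rho = 0.71 in SPF mice (n = 26, permutation adjusted p = 0.00594 and 0.00748, r = 0.69 without 2) and r = 0.45 and rho = 0.44 in GF mice (n = 25, permutation adjusted p = 0.263 and 0.21).

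Trim12a, a neighbour of Trim5, was related to Trim34a and, inversely, to Trim68 in GF mice. With Trim34a it had r = 0.71 and rho = 0.69 in GF mice (n = 32, permutation test, adjusted p = 0.00425 and 0.00279, r = 0.60 without the 2 farthest libraries), and r = 0.12 and rho = 0.18 in SPF mice (permutation adjusted p = 0.61 and 0.492). With Trim68 it had r = −0.64 and rho = −0.66 in GF mice (permutation adjusted p = 0.0142 and 0.0128, r = −0.58 without 2), and r = 0.01 and rho = 0.04 in SPF mice (permutation adjusted p = 0.976 and 0.869). Whether these coefficients differ between SPF and GF mice was not tested. Trim30a and Trim34a had r = 0.63 in SPF and 0.60 in GF mice (n = 32 each, permutation adjusted p = 0.0155 and 0.0306), with rho = 0.49 and 0.59 (permutation adjusted p = 0.0534 and 0.0242). Without the 2 farthest libraries r was 0.43 and 0.60, and neither then passed the adjusted test.

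For Trim12c, values over all libraries and inside a level were unlike. The GF libraries have a gap of 0.63 log2 units, under the limit of 1, so r over all 32 was taken, and it was 0.87 with Trim68 (rho = 0.82, permutation test, adjusted p = 0.000293 and 0.00132). Split at the gap, a step chosen after seeing the data, r was 0.24 in 18 libraries above and 0.15 in 12 below, and neither passed (permutation adjusted p over 115 relations, 0.669 and 0.817). The split narrows Trim12c's range and leaves fewer libraries, so it cannot show what the relation over all libraries rests on. Trim5 and Trim12c went opposite ways between levels but not inside them: r was 0.83 in the 12 SPF libraries above both gaps (permutation test, adjusted p = 0.0487, or 0.086 over 115 relations, rho = 0.78 with adjusted p = 0.0896, r = 0.65 without 2), 0.54 in the 11 with low Trim12c and 0.83 in the 6 with low Trim5 (permutation adjusted p = 0.266 and 0.578). In the 25 GF libraries above Trim5's gap, which hold both levels of Trim12c, r was −0.72 and rho −0.77 (permutation adjusted p = 0.0095 and 0.00528, r = −0.67 without 2). Split at the GF gap of Trim12c as well, r was 0.73 in 8 libraries above both gaps and 0.45 in 12 with low Trim12c (permutation adjusted p over 115 relations, 0.437 and 0.48). With Trim30d, Trim12c had r = −0.48 in the 30 GF libraries above Trim30d's gap and −0.70 in 18 SPF libraries above and 0.25 in 11 below its own gap, and none passed (permutation adjusted p = 0.105, 0.38 and 0.67). With Trim34a it had r = −0.54 and rho = −0.50 in GF mice (n = 32, permutation adjusted p = 0.0406 and 0.0586). Without the 2 farthest libraries r was −0.53, which did not then pass the adjusted test. Split at the gap, r was −0.35 in 18 libraries and 0.81 in 12 (permutation adjusted p over 115 relations, 0.298 and 0.662). Libraries that were the only ones of their group at a level are left out of these numbers.

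Trim30a followed the interferon-induced genes, and Trim30b the markers of immune cells of several types. Over 32 libraries, group means subtracted, Trim30a and the mean of 49 interferon-induced genes had r = 0.83 and rho = 0.70 in SPF mice (permutation test, adjusted over 108 relations, p = 0.00256 and 0.00309, r = 0.67 without the 2 farthest libraries). In GF mice r was 0.89 and rho 0.88 (permutation adjusted p = 0.00036 and 0.00054, r = 0.85). Trim34a had r = 0.66 in SPF (permutation adjusted p = 0.0258) and 0.49 in GF mice (permutation adjusted p = 0.168), with rho = 0.62 and 0.45 (permutation adjusted p = 0.0119 and 0.225). Trim30d had r = 0.51 and rho = 0.51 in SPF mice (permutation adjusted p = 0.0876 and 0.104). For Stim1 r was −0.20 and 0.01 (permutation adjusted p = 0.669 and 0.997). Trim30a also had r = 0.68 with the T and NK cell markers in SPF mice (permutation adjusted p = 0.0104) and 0.09 in GF mice (permutation adjusted p = 0.93). Trim30b, inside the level that holds most libraries, a step chosen after seeing the data, had r = 0.82 and rho = 0.79 with the T and NK cell markers in 30 SPF libraries (permutation test, adjusted over 24 values, p = 0.000192 each, r = 0.75 without the 2 farthest libraries). In 28 GF libraries r was 0.80 and rho 0.69 (permutation adjusted p = 0.000192 and 0.000978, r = 0.76). In the same libraries it had r = 0.76 in SPF and 0.78 in GF mice with the B cell markers (permutation adjusted p = 0.0002 and 0.000192), and 0.79 and 0.72 with the macrophage and dendritic cell markers (permutation adjusted p = 0.00024 and 0.000192). With the epithelial markers r was −0.58 in SPF and −0.66 in GF mice (permutation adjusted p = 0.0125 and 0.00214), and with the interferon-induced genes 0.33 and 0.46, which did not pass (permutation adjusted p = 0.157 and 0.0585). Which of these markers Trim30b follows most closely was not tested.

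**Figure D5:**
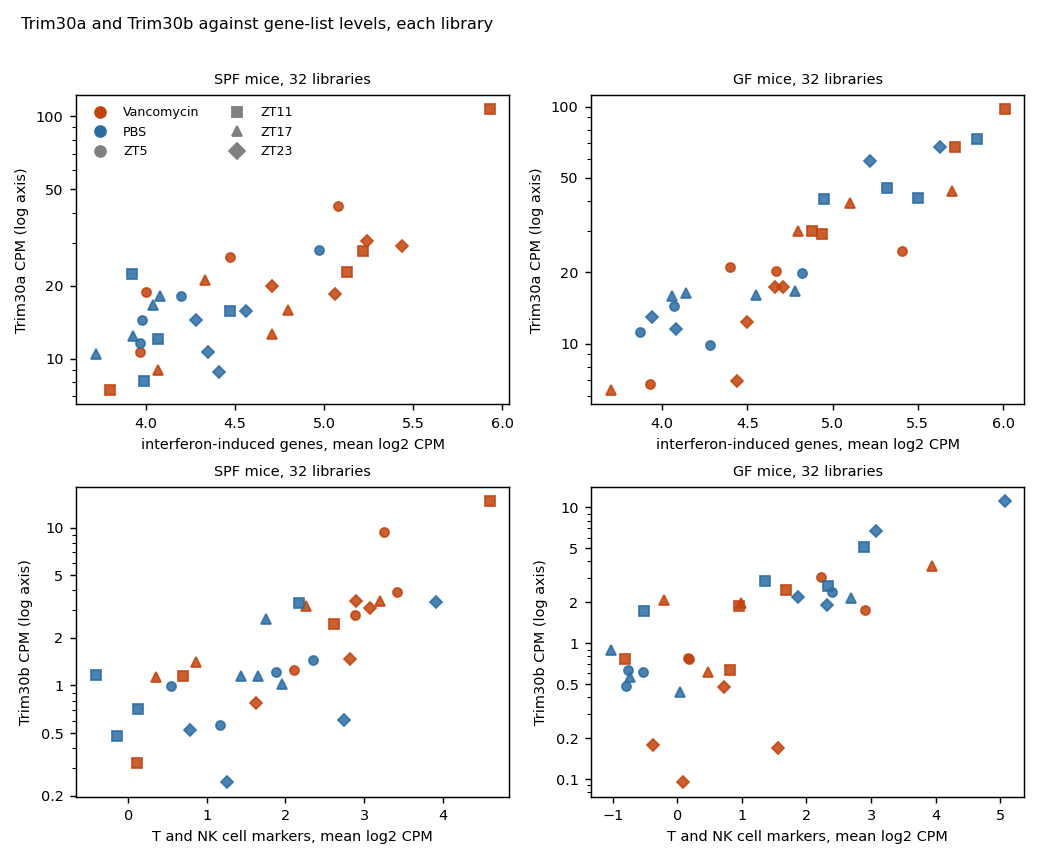
Trim30a CPM against the mean log2 CPM of 49 interferon-induced genes (top) and Trim30b CPM against the mean log2 CPM of the T and NK cell markers (bottom), one point per library, not centred on group means, SPF mice on the left and GF mice on the right, with CPM on a log axis. Both genes rise with their list in both tables, and the SPF library with Trim30a at 107 CPM is also the highest of both lists in SPF mice.

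Of the wider pathways, genes of the interferon-induced list and none of the calcium list had an edgeR adjusted p under 0.05 in SPF mice. The lists were chosen with earlier results of these data known, so their SPF counts and differences are a description. In SPF mice over all hours, 9 of 49 interferon-induced genes rose and 0 fell at an edgeR adjusted p under 0.05, beside 0.809% of all genes passing in either direction, with a median log2 difference of 0.57 beside 0.00 over all genes. Cxcl9, a T cell-attracting chemokine, averaged 6.37 ± 7.04 CPM after vancomycin and 1.02 ± 0.89 CPM after PBS (SD, n = 16 each, log2 difference 2.41 ± 0.45). It is named as the gene of the list with the smallest p in this same contrast. T and NK cell markers had a median level of 2.72 log2 CPM in SPF vancomycin and 1.54 in SPF PBS libraries, and their part in these differences was not tested. In GF mice 0 of the 49 passed edgeR's test, with a median of 0.17 beside 0.01. At an unadjusted p under 0.05 there were 2 of them, beside 672 of all 16951 genes. Whether the list differs between SPF and GF mice was not tested.

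Of 13 interferon receptor and signalling genes 0 passed in SPF and 0 in GF mice by edgeR, with medians of 0.11 and −0.03. At an unadjusted p under 0.05 there were 2 and 0, beside 2737 of 16938 and 672 of 16951 genes. Of 10 tested other TRIM genes outside the set, 1 passed in SPF mice by edgeR, Trim65. It was at 19.2 ± 3.97 CPM after vancomycin and 14.8 ± 2.10 CPM after PBS (n = 16 each, log2 difference 0.37 ± 0.08), again as a description. In GF mice 0 of the 10 passed, with 1 at an unadjusted p under 0.05. Of 18 store-operated calcium genes, the partners of Stim1 such as the Orai channels and the inhibitor Saraf, 0 passed in SPF and 0 in GF mice by edgeR, with 0 at an unadjusted p under 0.05 in either and medians of −0.07 and −0.03. DESeq2 was not run as a count over these lists.

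By r over 32 SPF libraries, group means subtracted, Trim30a was closest to Sp100 (r = 0.88, and 0.69 in GF mice), a nuclear body protein induced by interferon, then to Fam168b (0.86 and 0.05) and to Irf9 (0.84 and 0.76), a subunit of the interferon-activated ISGF3 complex. Sp100 and Irf9 are in the interferon list that was correlated with it, and Fam168b is not. Trim34a was closest to Oas1b (0.79 and 0.53), an antiviral enzyme gene, and then to Gm16464 (0.78 and 0.73). Trim30d was closest to a pair of pseudogenes just past the end of the cluster, Gm16464 (0.83) and Trim30e-ps1 (0.73), both at a median under 1 CPM in SPF mice. For Trim5, Trim12c and Trim30b, whose SPF libraries sit at separate levels, and for Trim30d in GF mice, a coefficient over all libraries is not given. The closest by it were Pak1, Gm16464 and Rin1 for Trim5, Rps13-ps2 for Trim12c, and for Trim30b Ms4a6c and Cd96, a T and NK cell receptor. For Stim1 the closest was Nup35 (0.76 and 0.03) and for Trim68 Mrps17 (0.82 and −0.20), which were alike in SPF mice only by these values. Each is the highest of the coefficients over 16938 tested genes and carries no test.

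The neighbours on the chromosome were set beside all genes in the same way, with separate levels included, as a description. Of 44 tested neighbours in SPF mice, r was beyond 0.5 in size with Trim12c for 4, Trim5 for 2, Trim68 for 2, Trim30d for 2 and Stim1 for 1, beside 3.86%, 0.98%, 3.54%, 1.28% and 2.58% of all genes in that order. Of 43 in GF mice it was so with Trim12c for 6, Trim5 for 4, Trim68 for 4, Trim30d for 5 and Stim1 for 4, beside 1.59%, 0.383%, 1.31%, 0.72% and 2.14%. Trim21, an antibody receptor in the cytosol that lies between Stim1 and Trim68, had r = −0.03 with Trim68 in SPF and 0.32 in GF mice. Trim6, beside Trim34a, had r = 0.35 with Trim30d in SPF and 0.73 in GF mice. Trim30c, inside the cluster, had −0.16 and −0.05 with Trim30d. With Trim12c it had 0.10 in SPF and 0.75 in GF mice. A correlation across neighbours is over genes, which are not independent replicates.

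Paralogues share sequence, which limits what a read can tell apart. Of the 75-base stretches of their annotated transcripts, 20.6% of Trim5's and 16.9% of Trim12c's also occur in another gene, mostly in each other (12.4% and 12.8%). The share was 5.25% for Trim12a, 4.98% for Trim30a, 5.40% for Trim30d and 0.078% for Trim30b, and for Trim34a it was 29.5%, all with genes outside the set. It was 0% for Trim68 and 0% for Stim1. The sum of Trim5, Trim12a and Trim12c was 27.6 to 48.0 CPM in SPF libraries with low Trim12c. It was 52.3 to 77.2 CPM in those of the middle kind and 64.5 to 104 CPM in those with low Trim5, ranges that overlap. In GF libraries the sum was 34.3 to 59.2, 47.2 to 83.1 and 70.3 to 111 CPM in the same order, each range overlapping the next. The part of shared reads in the levels of Trim5 and Trim12c was not tested.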

How the data were processed

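Whole-colon poly(A) RNA of SPF and GF mice was sequenced, 32 libraries per housing type. The deposited values are estimated counts per gene that need not be whole, made by the authors with Trim Galore 0.6.2, cutadapt 3.5 and Salmon on build GRCm39, per the submitters' processing notes. No version of Salmon is given in the sources used here. They were rounded to whole numbers, and genes with at least 10 in at least 4 libraries were kept.

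Each table was scaled by TMM and fitted with edgeR 4.0.16 (quasi-likelihood test, 8 group means), with Benjamini-Hochberg adjustment over all genes tested and a threshold of 0.05. DESeq2 1.42.0 was an alternative, and the SPF and GF tables met only in the test of their difference. Log2 CPM with a prior count of 1 served correlations, with 100000 permutations within groups. A gap over 1 log2 unit with at least 2 libraries on each side defined separate levels. The other rule, over 0.5 with at least 6, was chosen after seeing the data. The fits were tested on simulated data.

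Members and gene lists were chosen with earlier results of these data known. Beside the members, the text names for each the genes of highest r in SPF mice (up to 3), chromosome 7 neighbours, and up to 6 genes with the smallest p from the lists. Trim30c and Trim21 were named after their values were seen. Order and windows come from GRCm38.p6, and gene names from the deposited tables. Replicate numbers did not pair libraries. The other tools were R 4.3.3, Python 3.11.15 and scipy 1.17.1.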

Additional observations from a re-analysis of the deposited data

Results flagged for a closer look

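Single libraries stood far from the other 3 of their group in 17 of 144 sets of gene and group, in 8 of the 9 genes. The rule, Dixon's ratio of gap to range, marks about 5% of sets of independent, normally distributed values. It was applied to CPM without logs, and members are correlated, so no excess over chance is read from the count. The share over all genes was not counted. Trim12c was at 15.6 CPM in SPF vancomycin ZT5 replicate 4, against 46.8 to 47.6 in its companions, and at 43.3 CPM in SPF PBS ZT5 replicate 4, against 11.5 to 16.1. It was at 14.8 CPM in GF PBS ZT5 replicate 4, against 40.1 to 45.2. Trim68 was at 10.8 CPM in SPF PBS ZT5 replicate 4, against 4.31 to 4.82, and Trim30d at 40.7 CPM in SPF vancomycin ZT5 replicate 4, against 6.6 to 11. Trim5 was at 10.6 CPM in GF vancomycin ZT23 replicate 3, against 1.40 to 2.37, and Trim30d in that library was at 18.8 CPM, against 1.11 to 3.95. SPF vancomycin ZT5 replicate 4 was thus apart in Trim12c and Trim30d, SPF PBS ZT5 replicate 4 in Trim12c and Trim68, and GF vancomycin ZT23 replicate 3 in Trim5 and Trim30d.

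Trim30b was high in 4 single libraries, at 14.7 CPM in SPF vancomycin ZT11 replicate 2 (others 0.325 to 2.45), 3.39 CPM in SPF PBS ZT23 replicate 4 (0.243 to 0.603), 2.63 CPM in SPF PBS ZT17 replicate 2 (1.02 to 1.15) and 2.40 CPM in GF PBS ZT5 replicate 1 (0.483 to 0.64). The first pair also had the highest T and NK cell marker levels of SPF mice, at 4.60 and 3.91 log2 CPM, and the part of those cells was not tested. In GF PBS ZT11 replicate 3 Trim30a was at 72.8 CPM, against 40.8 to 45.2, and Trim12c at 16.6 CPM, against 14.5 to 14.6. Trim68 was at 6.32 CPM in SPF PBS ZT11 replicate 2, against 4.52 to 4.74. Trim34a was at 5.43 CPM in SPF PBS ZT23 replicate 3, against 4.17 to 4.35. Stim1 was low in SPF vancomycin ZT23 replicate 2, at 145 CPM against 192 to 194, and in SPF PBS ZT17 replicate 2, at 173 CPM against 194 to 195.

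The SPF vancomycin differences of 3 members differed between hours in the fit's test of treatment by hour, which belongs to the contrasts that chose them. The highest minus the lowest log2 difference was 3.66 for Trim12c, 2.31 for Trim68 and 1.44 for Stim1.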

How the results depend on the processing

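The limits are 4 libraries a group, labels with no litter, cage or sex, and reads shared between paralogues. No GF or housing result for a member passed edgeR's test. The low counts of Trim30b limit its values.

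Replicate numbers did not pair libraries: same-numbered deviations had r between −0.334 and 0.366 among SPF libraries and between −0.425 and 0.519 among GF libraries, and 28 and 30 of 112 pairs per table exceeded 0.1. With the replicate number as a block, 2 members instead of 3 passed at SPF ZT17, Trim68 being lost, and no other count of members changed.

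By DESeq2, 1 member passed, instead of 0, for the SPF difference over all hours and at SPF ZT11, SPF ZT23 and GF ZT23. The same held for GF treatment by hour and for the SPF effect minus the GF effect. For GF time of day after PBS and after vancomycin 2 passed instead of 0. All genes passing DESeq2 in those tests, in that order, were 481, 94, 42, 55, 9, 16, 396 and 179. With the T and NK cell covariate 1 passed instead of 0 at SPF ZT11 and at SPF ZT23. With the Y-linked covariate Trim68 at SPF ZT17 had a log2 difference of −1.33 and fell short of the threshold. Of 5 SPF member pairs that passed the correlation test over all 32 libraries, 1 passed without the 2 libraries farthest from the median and 2 with levels by the smaller gap. Trim30a in GF mice over all hours, −0.01, was 0.01 with the replicate block and 0.14 with the Y-linked covariate. For these the cause was not tested.

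With single libraries left out, members passing ranged from 0 to 3 for SPF over all hours, 1 to 3 at SPF ZT17, and 0 to 1 at SPF ZT5, ZT11 and ZT23 and at GF ZT23. Effects over all hours ranged from −0.03 to 0.12 for Trim68 in SPF mice, −0.10 to 0.16 for Trim12a in GF mice and −0.11 to 0.10 for Trim30a in GF mice. Other alternatives left 129 counts or shares within 1.5 times or the spread, and of single effects and correlations 358 kept their direction and side of the threshold, 10 fell short of it and 7 passed it.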
